A study of Mus musculus with 10 samples.

Results

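To describe what goblet cells secrete in the crypts of the Arid3a-deficient jejunum, 10 genes were followed in RNA-seq of crypts from 5 WT and 5 Arid3a KO mice. The genes were given by name: Muc2, Fcgbp, Clca1, Zg16, Tff3, Agr2, Spink4, Klk1, Tpsg1 and Ccl6. All 10 are among the 54838 genes listed for each library, and all 10 passed the filter on low counts, which left 14719 genes in all. KO animals were VillinCre-ERT2; Arid3a fl/fl mice, in which tamoxifen activates a Cre recombinase driven by the Villin promoter, so that the deletion is restricted to Villin-expressing intestinal epithelial cells and Arid3a of other crypt cells is left in place. Both genotypes received tamoxifen on 3 consecutive days, and crypts were collected 1 month after the first dose. Whether WT animals carried Cre or the floxed allele, and the age of the animals, were not given in the sources used here. The animal codes fall into one series for WT and another for KO. What a series stands for was not given in the sources used here, so series and genotype cannot be told apart.

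Goblet cells are secretory cells that arise from crypt progenitors with NOTCH signalling off, under Atoh1 and then Spdef, and they release a gel-forming mucin together with proteins that fold, cross-link, process or bind it. MUC2 polymerizes into the mucus gel, FCGBP, CLCA1 and ZG16 are released with it, TFF3 is a small trefoil peptide of epithelial repair, and AGR2 is a disulphide isomerase of the endoplasmic reticulum needed for MUC2 to fold. SPINK4 is a Kazal-type protease inhibitor of the goblet granule, KLK1 and TPSG1 are serine proteases, and CCL6 is a CC chemokine, also made by myeloid cells. ARID3A is an AT-rich DNA-binding transcription factor of the ARID family.

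Expected counts summed to 27050455 to 31053622 per library, every KO total above every WT total, which put 27.1 to 31.1 counts behind a level of 1 CPM, counts scaled to a common library size. Levels below are CPM on TMM-normalized library sizes unless TPM is named. Arid3a, the deleted gene, was at 1.9 to 2.7 CPM in WT and 0.3 to 1.2 CPM in KO libraries, without overlap. It fell by 1.84 ± 0.32 on the log2 scale (SE, edgeR adjusted p = 0.0020). In 4 libraries, WT 3, WT 4, WT 5 and KO 4, the gastric genes Gkn1, Gkn2, Tff1 and Muc5ac were each over 1 CPM and summed to between 97.7 and 684 CPM, against at most 1.72 CPM in the other 6. Where these transcripts came from was not tested. The log2 difference of each of the 10 products is therefore also given in a fit without these 4 libraries, which leaves 2 WT and 4 KO animals. In that fit Arid3a had a log2 difference of -1.69 (adjusted p = 0.077). Across all 14719 genes, edgeR called 28.3% in the 10 libraries, 15.6% higher and 12.7% lower in KO. Enterocyte genes rose for 14 of 14 genes tested, with Alpi, an intestinal alkaline phosphatase, at a log2 fold change of 1.83 (adjusted p = 0.00098), and their part in the results below was not tested. The 8 epithelial genes checked, Epcam and Cdh1 among them, summed to 5076 to 5898 CPM in WT and 6055 to 6832 CPM in KO, with 2 higher in KO (Vil1 and Krt20) and 6 not called. Hoxb13 and Fgf15, marks of colon and ileum, were at 0 in every library, and of 7 regional genes tested 1 rose, Nr1h4. Of 10 stromal genes 2 fell, Pecam1 and Acta2, and their sum ranged from 14.5 to 87.8 CPM in WT and from 10.3 to 135.5 CPM in KO. In the 6 libraries 4 of the 14 enterocyte genes rose (median log2 fold change 0.89, beside 1.55 in all 10 libraries), with Alpi at 1.31 (edgeR adjusted p = 0.012). There edgeR called none of the epithelial, regional or stromal genes, with 2, 1 and 6 at an unadjusted p under 0.05. Among all 15229 genes of that fit, 423 were called and 3366 had an unadjusted p under 0.05. In bulk RNA fewer goblet cells and less RNA per goblet cell cannot be told apart.

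In TPM, which is per transcript length, WT crypts held the most Zg16 at 1000 ± 478 TPM (SD, n = 5), then Spink4 at 990.2 ± 118, Tff3 at 885 ± 159, Fcgbp at 623 ± 76.6 and Agr2 at 545 ± 53.0 TPM. Ccl6 at 200.3 ± 46.6, Muc2 at 173 ± 29.5, Clca1 at 147 ± 31.8 and Klk1 at 122 ± 11.1 TPM formed a lower tier, and Tpsg1 stood last at 8.62 ± 1.64 TPM. Within each tier the WT ranges of neighbouring genes overlapped, whereas Agr2 did not overlap Ccl6, and Klk1 did not overlap Tpsg1. In KO crypts Zg16 remained first at 1432 ± 319 TPM, Tff3 (870 ± 58.1 TPM) passed Spink4 (747 ± 125 TPM), and Ccl6 dropped from sixth to eighth place, behind Muc2 and Clca1. The TPM values of Muc2 and Fcgbp are uncertain. The length RSEM assigned to Muc2 was 1772 to 2243 bases, while its exons in the GENCODE annotation of GRCm38 cover 7127 bases. The length assigned to Fcgbp was 3012 to 4632 bases, while its exons cover 10497 bases.

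Of the 10 products, Ccl6 and Klk1 fell in the Arid3a KO crypts, none rose, and the other 8 did not pass the test. The 2 of 10 genes called are 20% of the products, beside 28.3% of all 14719 genes (15.6% higher and 12.7% lower in KO). The median log2 fold change of the 10 was 0.04, beside -0.03 over all genes tested, with 6 above 0 and 4 below. Only Ccl6 had CPM ranges without overlap, 1 of 10 genes beside 19.6% of all genes. In the 6 libraries without gastric genes edgeR called none of the 10, with 2 at an unadjusted p under 0.05. Of 15229 genes tested there, 2.78% were called and 3366 had an unadjusted p under 0.05.

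**Figure D1:**
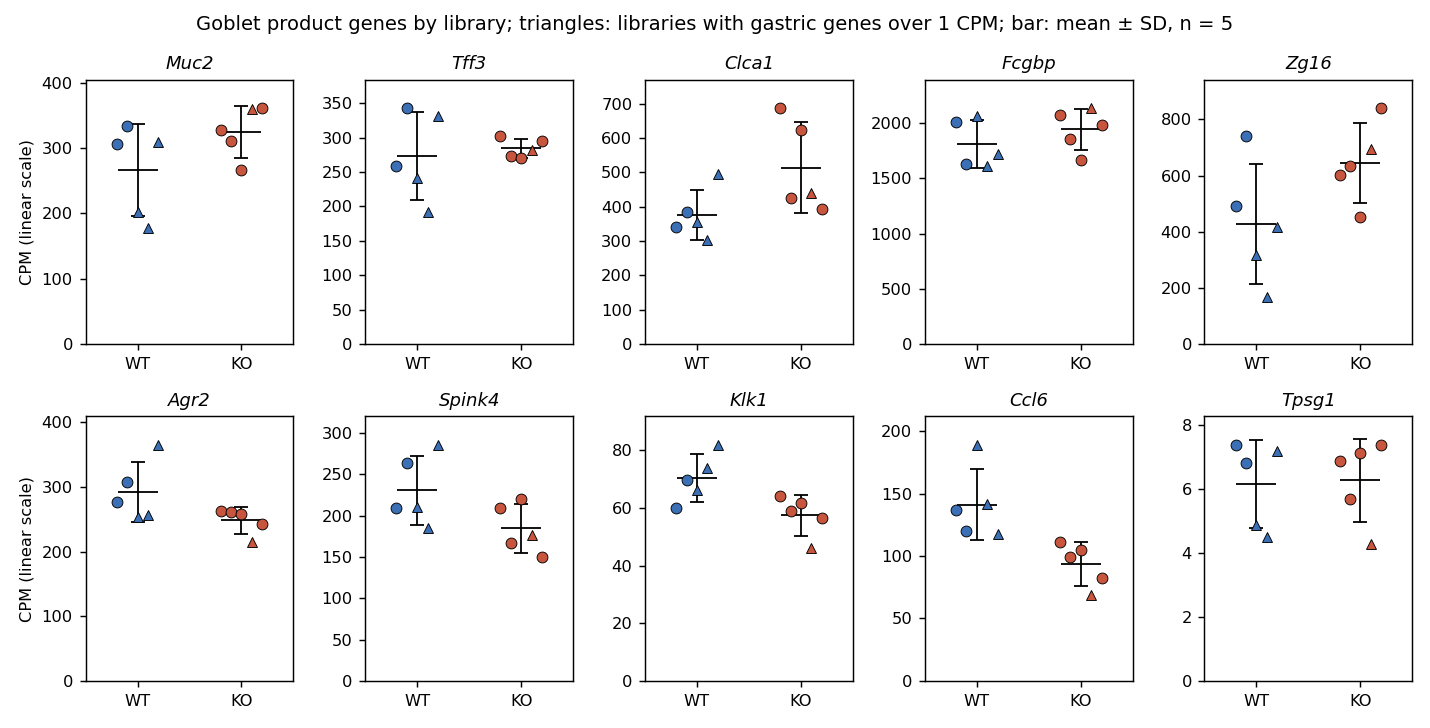
CPM of the 10 goblet products in each library (vertical axes, linear from 0) for 5 WT and 5 KO animals, with the mean and SD as bars; triangles mark the 4 libraries with gastric genes over 1 CPM. Only for Ccl6 do all KO points (68.8 to 111 CPM) lie below all WT points (118 to 189 CPM), and the low WT points of Zg16 and Muc2 are triangles.

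Ccl6 (ENSMUSG00000018927, GRCm38 chromosome 11, 83587882 to 83593087, minus strand) showed the largest difference of the 10 products towards lower levels. It was at 137, 120, 189, 142 and 118 CPM in WT 1 to 5 and at 111, 99.5, 105, 68.8 and 82.1 CPM in KO 1 to 5. Every KO library lay below every WT library, although KO 1 and WT 5 were close. Ccl6 fell by 0.60 ± 0.15 on the log2 scale (SE), a change of -33.9%, with a 95% interval from -0.94 to -0.26 and an edgeR adjusted p of 0.015. Leaving out any one animal kept the call, with adjusted p between 0.014 and 0.039. In the 6 libraries without gastric genes the log2 difference was -0.38 and the adjusted p 0.112. The gene overlaps E230016K23Rik on the opposite strand, and the strand setting of the counting was not given in the sources used here.

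Cells other than goblet cells also make Ccl6, and their markers moved as follows. Of 13 myeloid genes tested, 3 fell, which were C1qa, C1qb and C1qc of the complement C1q complex in macrophages, and 1 rose, Siglecf (log2 fold change 0.77, adjusted p = 0.0015), which tuft cells also express. These calls are 30.8% of the myeloid genes tested, beside 28.3% of all genes (15.6% higher and 12.7% lower). Csf1r, the receptor of macrophage growth factor, had a log2 difference of -1.03 with an adjusted p of 0.055, and Cd14 one of -0.44 with an adjusted p of 0.140. Without the libraries with gastric genes C1qc fell (-1.75, adjusted p = 0.046), while C1qa, C1qb and Siglecf had adjusted p-values of 0.086, 0.142 and 0.053. The 18 myeloid genes listed summed to 76.1 to 145 CPM in WT and 45.6 to 156 CPM in KO libraries. Of that list, Epx, Prg2, Ccr3, S100a8 and S100a9, which mark eosinophils and neutrophils, were under 1 CPM in every library. The Paneth genes, which mark the neighbouring secretory cells of the crypt base, summed to 19497 to 28922 CPM in WT and 12288 to 16533 CPM in KO. The part of either cell type in the difference of Ccl6 was not tested.

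Of the serine proteases and the protease inhibitor, Klk1 fell by a small amount, Spink4 had a lower mean that did not pass the test, and Tpsg1 showed the smallest difference of all products. Klk1 (ENSMUSG00000063903, GRCm38 chromosome 7, 44225360 to 44229618, plus strand) was at 60.1, 69.8, 66.1, 73.8 and 81.9 CPM in WT and 64.0, 58.8, 61.6, 46.0 and 56.5 CPM in KO libraries. The ranges overlapped through WT 1, which was lower than KO 1 and KO 3. Klk1 fell by 0.29 ± 0.10 on the log2 scale (SE, 95% interval -0.51 to -0.07, edgeR adjusted p = 0.046). That call was lost on leaving out any single animal other than WT 1 or KO 1 (adjusted p 0.057 to 0.111), and in the 6 libraries without gastric genes the log2 difference was -0.12 (adjusted p = 0.498). Klk1 overlaps the pseudogene Gm10109 on the opposite strand and belongs to a family of similar kallikrein genes, among which RSEM divides shared reads.

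Spink4 (ENSMUSG00000028415, chromosome 4, 40920052 to 40931395, plus strand) was at 209, 264, 210.5, 185 and 286 CPM in WT and 209, 167, 220.4, 176 and 150.4 CPM in KO libraries. The groups overlapped, and the log2 difference was -0.32 ± 0.14 (SE, 95% interval -0.62 to -0.03, edgeR adjusted p = 0.094), or -0.35 in the 6 libraries without gastric genes (adjusted p = 0.278). Tpsg1 (ENSMUSG00000033200, chromosome 17, 25369273 to 25374442, plus strand) was the lowest of the 10 products, with 126 to 212 counts per library. Its mean WT TPM was above that of 45.2% of the genes tested. It was at 6.16 ± 1.36 CPM in WT and 6.27 ± 1.29 CPM in KO (SD, n = 5), a log2 difference of 0.03 with a 95% interval from -0.37 to 0.43 (edgeR adjusted p = 0.930), and -0.08 in the 6 libraries (adjusted p = 0.815). Mast cells also express Tpsg1. Of 11 mast cell genes, 8 were under 1 CPM in every library (Cpa3, Mcpt4, Tpsb2, Tpsab1, Cma1, Fcer1a, Ms4a2 and Hdc). The mucosal mast cell proteases Mcpt1 and Mcpt2 were at 1.17 to 6.55 CPM and 0.44 to 3.24 CPM in WT, and at 3.03 to 3.60 CPM and 0.95 to 2.04 CPM in KO, and Kit was at 16.8 to 28.3 CPM in WT and 18.9 to 23.04 CPM in KO. None of the 4 mast cell genes tested was called by edgeR (adjusted p 0.640 to 0.857, 0 at an unadjusted p under 0.05 in the 6 libraries), and their part in the level of Tpsg1 was not tested. Tpsg1 overlaps Cacna1h on the opposite strand.

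Among the genes of the mucus gel, no member passed the test, and the most variable in WT was the lectin Zg16, with a coefficient of variation of 49.7%, while in KO it was Clca1 (25.7%, beside 21.8% for Zg16). Zg16 (ENSMUSG00000049350, chromosome 7, 127050156 to 127087328, minus strand) was at 492, 739, 319, 168 and 417 CPM in WT and 602, 635, 453, 694 and 840.3 CPM in KO libraries. WT 4 was the lowest library and KO 5 the highest, and the groups overlapped through WT 1 and WT 2. The log2 difference was 0.59 ± 0.34 (SE, 95% interval -0.18 to 1.37, edgeR adjusted p = 0.225), and without the libraries with gastric genes, which hold the lowest 3 WT values, it was 0.03 (adjusted p = 0.960). Without WT 4 alone it was 0.39 (adjusted p = 0.288).

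Muc2, the gel-forming mucin itself (ENSMUSG00000025515, chromosome 7, 141690340 to 141754693, plus strand), was at 307, 334, 203, 178 and 309 CPM in WT and 328, 310.3, 266, 359 and 361 CPM in KO libraries. WT 3 and WT 4 were below all other libraries, and the groups overlapped. The log2 difference was 0.29 ± 0.17 (SE, 95% interval -0.09 to 0.66, edgeR adjusted p = 0.229), and -0.03 in the 6 libraries without gastric genes (adjusted p = 0.926). Without WT 4 alone it was 0.17 (adjusted p = 0.411).

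Clca1, a secreted metalloprotease that cleaves MUC2 (ENSMUSG00000028255, chromosome 3, 145003817 to 145032776, minus strand), was at 340, 384, 356, 302 and 495 CPM in WT. In KO libraries it was at 687, 426, 622, 439 and 394 CPM. KO 1 and KO 3 exceeded every WT library, while the other KO values lay inside the WT range. The log2 difference was 0.45 ± 0.18 (SE, 95% interval 0.06 to 0.84, edgeR adjusted p = 0.077). Clca1 passed the threshold with DESeq2 (log2 fold change 0.46, adjusted p = 0.031) and in edgeR on leaving out WT 5 (0.59, adjusted p = 0.032). In the 6 libraries without gastric genes its difference was 0.55 (adjusted p = 0.245).

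Fcgbp, the Fc gamma binding protein of mucus (ENSMUSG00000047730, chromosome 7, 28071236 to 28120862, plus strand), carried the most counts of the 10 genes, 47223 to 62777 per library. It was at 2013, 1632, 2067, 1613 and 1717 CPM in WT and 2068, 1855, 1667, 2135 and 1983 CPM in KO libraries. The groups overlapped along most of their range, and the log2 difference was 0.10 ± 0.10 (SE, 95% interval -0.11 to 0.32, edgeR adjusted p = 0.459). In the 6 libraries without gastric genes it was 0.05 (adjusted p = 0.865).

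Tff3 and the chaperone Agr2 complete the set. Tff3 (ENSMUSG00000024029, chromosome 17, 31125306 to 31129646, minus strand) was at 258, 343, 241, 192 and 332 CPM in WT and 301, 273, 270.3, 282 and 295 CPM in KO libraries. The KO animals spanned a much narrower range than the WT animals, with a coefficient of variation of 4.75% beside 23.2%, and sat inside it. The log2 difference was 0.06 ± 0.14 (SE, 95% interval -0.24 to 0.35, edgeR adjusted p = 0.777), and -0.08 in the 6 libraries (adjusted p = 0.725). Agr2 (ENSMUSG00000020581, chromosome 12, 35992907 to 36004087, plus strand) was at 276, 307, 254, 257 and 365 CPM in WT and 263, 261, 259, 215 and 243 CPM in KO libraries. WT 3 and WT 4 lay among the KO values, and the log2 difference was -0.23 ± 0.10 (SE, 95% interval -0.46 to -0.01, edgeR adjusted p = 0.107), and -0.19 in the 6 libraries (adjusted p = 0.223). Without WT 5, the highest library, it was -0.13 (adjusted p = 0.299).

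**Figure D2:**
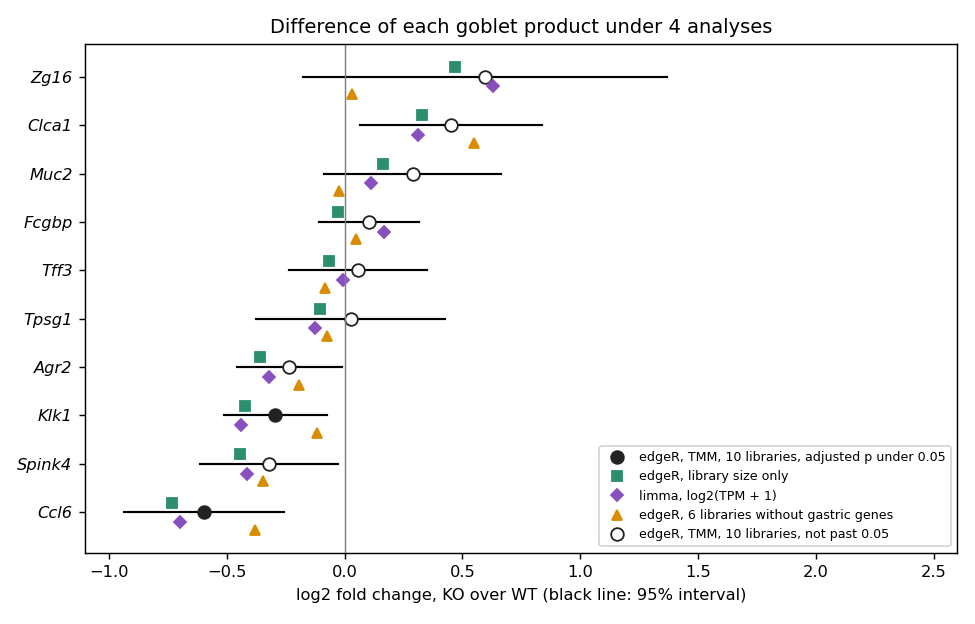
Log2 fold change of each product, KO over WT (horizontal axis), with its 95% interval in edgeR on 10 libraries (circles, filled where the adjusted p was under 0.05), and the value under library-size scaling (squares), limma on TPM (diamonds) and edgeR on the 6 libraries without gastric genes (triangles). Ccl6, Spink4, Klk1 and Agr2 lie below 0 and Clca1 and Zg16 above 0 in all 4 analyses, while Zg16 moves from 0.59 to 0.03 without the libraries with gastric genes.

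The number of products called depended on the scale. On log2(TPM + 1) in limma, 4 of 10 fell, beside 18.8% of all genes lower in KO: Ccl6 (log2 fold change -0.70, adjusted p = 0.0087), Klk1 (-0.44, adjusted p = 0.0050), Spink4 (-0.41, adjusted p = 0.021) and Agr2 (-0.32, adjusted p = 0.0094). In TPM the groups of Ccl6, Klk1 and Agr2 did not overlap, but the share of all genes without overlap in TPM was not computed. Agr2 was at 484 to 627 TPM in WT and 402 to 467 TPM in KO. The same 4 genes passed with library size as the only scaling, beside 27.4% of all genes lower in KO. Both scales move the median of all genes, from -0.03 to -0.10 on TPM and to -0.16 on library size alone, and with it the balance of the calls. Of the genes called, 55.1% were higher in KO with TMM, 33.8% on log2(TPM + 1) and 27.7% with library size alone. The signs of Tff3 and Tpsg1 turned on both scales, and that of Fcgbp with library size alone, with none of these called. DESeq2 called 3 of the 10, Ccl6, Klk1 and Clca1, beside 33.4% of the genes to which it gave an adjusted p.

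The share of each gene in the summed TPM of the 10 does not depend on how libraries are scaled. The summed TPM of the 10 genes was 4693 ± 808 in WT and 4773 ± 344 in KO (SD, n = 5). Zg16 made up 20.5% ± 6.77 of that sum in WT and 29.8% ± 5.35 in KO (exact permutation p = 0.048). Spink4 went from 21.3% ± 2.14 to 15.7% ± 3.06 (exact permutation p = 0.024) and Agr2 from 11.8% ± 1.78 to 9.17% ± 1.00 (p = 0.024, same exact test). Ccl6 went from 4.46% ± 1.62 to 2.58% ± 0.53 (exact permutation p = 0.040) and Klk1 from 2.68% ± 0.70 to 1.88% ± 0.26 (exact permutation p = 0.024). The shares of Muc2, Tff3, Clca1, Fcgbp and Tpsg1 gave exact permutation p-values between 0.056 and 0.476. These tests were two-sided and not adjusted for 10 shares that sum to 100%, and the ranges of the genotypes overlapped for every gene. On leaving out single animals, Spink4 and Agr2 kept an exact permutation p under 0.05. Zg16 lost it without WT 3, WT 4, WT 5, KO 2, KO 4 or KO 5 (p 0.087 to 0.095), Ccl6 without KO 1, KO 2, KO 4 or KO 5 (p 0.056 to 0.079) and Klk1 without KO 2, KO 4 or KO 5 (p 0.056 to 0.063), all by the exact test. The share of Tff3 passed without WT 1 (exact p = 0.016) and that of Fcgbp without WT 3 or KO 3 (exact p = 0.016 and 0.048). Without the libraries with gastric genes the differences of the 5 shares under 0.05 were smaller. Zg16 differed by 2.07 percentage points beside 9.38 in all 10 libraries (exact permutation p = 0.733 without them). Spink4 differed by -3.22 beside -5.58 percentage points (exact p = 0.333), Agr2 by -0.88 beside -2.65 (exact p = 0.400), Ccl6 by -0.71 beside -1.89 (exact p = 0.333) and Klk1 by -0.17 beside -0.79 (exact p = 0.400). The lowest exact permutation p that 2 against 4 animals allow is 0.067, so no share could pass there.

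**Figure D3:**
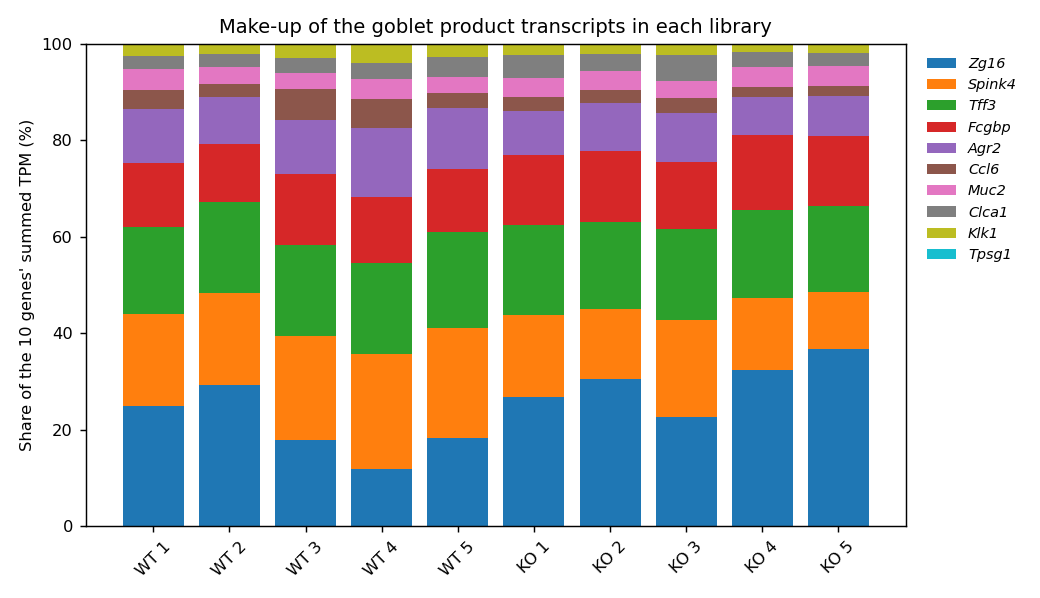
Share of each product in the summed TPM of the 10 genes (vertical axis, percent) in each of the 10 libraries, stacked from Zg16 at the bottom. Zg16 takes between 11.9% (WT 4) and 36.7% (KO 5), and Spink4 takes 19.1% to 23.9% in WT and 12.0% to 20.2% in KO.

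Promoter sequence from RefSeq was matched for 6 of the 10 genes, while Tff3, Clca1, Zg16 and Spink4 were not matched. The 250 bases before the RefSeq start are shown for both genes that fell, Ccl6 and Klk1, and for Muc2, the main mucin, which did not pass the test. Each is written 5′ to 3′ in the direction of transcription, with capitals at every match, on either strand, to one of 6 searched words. These were ATTAAA, an AT-rich word bound by ARID3A, the E-box CAGCTG and a further E-box, CAGATG, of the class bound by ATOH1, the GATA factor word AGATAA, the SPDEF word CCGGAT and the TATA box word TATAA. The TATA box word and the GATA factor word can abut but none of the matches shown overlap.
Ccl6 promoter, GRCm38.p6 chr11:83593088-83593337, minus strand: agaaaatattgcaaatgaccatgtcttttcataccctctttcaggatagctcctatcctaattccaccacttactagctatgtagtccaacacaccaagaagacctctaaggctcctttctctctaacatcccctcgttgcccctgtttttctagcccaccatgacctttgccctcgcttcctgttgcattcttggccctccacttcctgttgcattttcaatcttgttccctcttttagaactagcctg
Klk1 promoter, GRCm38.p6 chr7:44225110-44225359, plus strand: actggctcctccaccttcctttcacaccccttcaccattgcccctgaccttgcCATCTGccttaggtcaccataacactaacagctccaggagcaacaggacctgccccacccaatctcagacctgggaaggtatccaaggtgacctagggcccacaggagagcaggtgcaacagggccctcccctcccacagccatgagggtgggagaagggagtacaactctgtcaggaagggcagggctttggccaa
Muc2 promoter, GRCm38.p6 chr7:141690090-141690339, plus strand: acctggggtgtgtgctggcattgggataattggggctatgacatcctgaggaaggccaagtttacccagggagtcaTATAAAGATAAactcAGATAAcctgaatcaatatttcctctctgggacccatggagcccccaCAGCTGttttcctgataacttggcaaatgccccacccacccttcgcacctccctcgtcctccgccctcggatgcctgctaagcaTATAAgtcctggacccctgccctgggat
The Ccl6 window held no match to the 6 words, the Klk1 window 1 match and the Muc2 window 5 matches to 3 of the words, of which the TATAA nearest the start begins 28 bases before it and 2 AGATAA words stand close together further upstream. ATTAAA was absent from all 3 windows, and among 7 windows of the matched genes (Tpsg1 has 2) only 1 of Tpsg1 held it. Of 32851 promoter windows of the same length, 12.7% held the ARID3A word, 13.001% the first E-box word, 14.4% the other, 9.99% the GATA factor word, 4.94% the SPDEF word and 22.8% the TATA box word. A match is a run of letters, and the absence of a word says only that these letters are not in the window.

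RSEM reports for each gene a length averaged over its transcripts by their estimated abundance, so a shift in length is a shift in those estimates. Transcript use itself was not measured. Of the 9 products whose length varied, 1 reached an unadjusted exact permutation p under 0.05, Klk1, where 13.03% of 11860 genes whose length varied did so, a share at the background that says nothing particular about the products. The length of Klk1 was 821, 851, 846, 838 and 863 bases in WT and 860, 877, 877, 869 and 872 bases in KO libraries. KO libraries had the longer Klk1 by 27.3 bases on average, and only WT 5 reached the KO range (two-sided exact permutation p = 0.016). The difference stayed between 21.6 and 32.0 bases on leaving out each animal (exact permutation p 0.0079 to 0.024) and was 35.3 bases in the 6 libraries without gastric genes (exact permutation p = 0.067, the smallest possible there). In 3.79% of the 11860 genes the groups did not overlap, as in none of the products. For the other 8 products whose length varied the exact permutation p lay between 0.079 (Tpsg1) and 0.738 (Clca1), and Tff3 has a single transcript of 493 bases. On leaving out 1 animal the difference of Muc2 passed without WT 2 (200.1 bases, exact p = 0.040), that of Agr2 without WT 5 (0.38 bases shorter, exact p = 0.024) and that of Tpsg1 without KO 4 (67.9 bases, exact p = 0.0079). Fcgbp ranged from 3012 to 4632 bases in WT and from 3355 to 3558 bases in KO, so its TPM rests on lengths that vary between WT animals.

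Pairs of products were compared within genotypes. Over the 10 libraries, with each gene centred on its genotype mean, 31 of 45 pairs had a positive r and 2 of 45 pairs of products had a correlation past the threshold after Benjamini-Hochberg adjustment over the 45 pairs. Muc2 and Zg16 deviated together (Pearson r = 0.92, exact permutation p = 0.00042, adjusted 0.0094; Spearman rho = 0.89, exact permutation p = 0.00090, adjusted 0.038). So did Clca1 and Spink4 (r = 0.92, exact permutation p = 0.00035, adjusted 0.0094; rho = 0.88, exact permutation p = 0.0017, adjusted 0.038). Without the 2 libraries farthest from the median of the first gene, r was 0.89 and 0.92, and within the 6 libraries without gastric genes it was 0.92 in both pairs. Tff3 leaned towards Muc2 (r = 0.85, exact permutation p = 0.013, adjusted 0.187), but r was 0.67 without the 2 farthest libraries. Ccl6 went the opposite way to Muc2 (r = -0.64, exact permutation p = 0.041, adjusted 0.187; rho = -0.70, exact permutation p = 0.019, adjusted 0.213). Values of one library share its depth and scaling, and the rate among pairs of other genes was not computed.

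**Figure D4:**
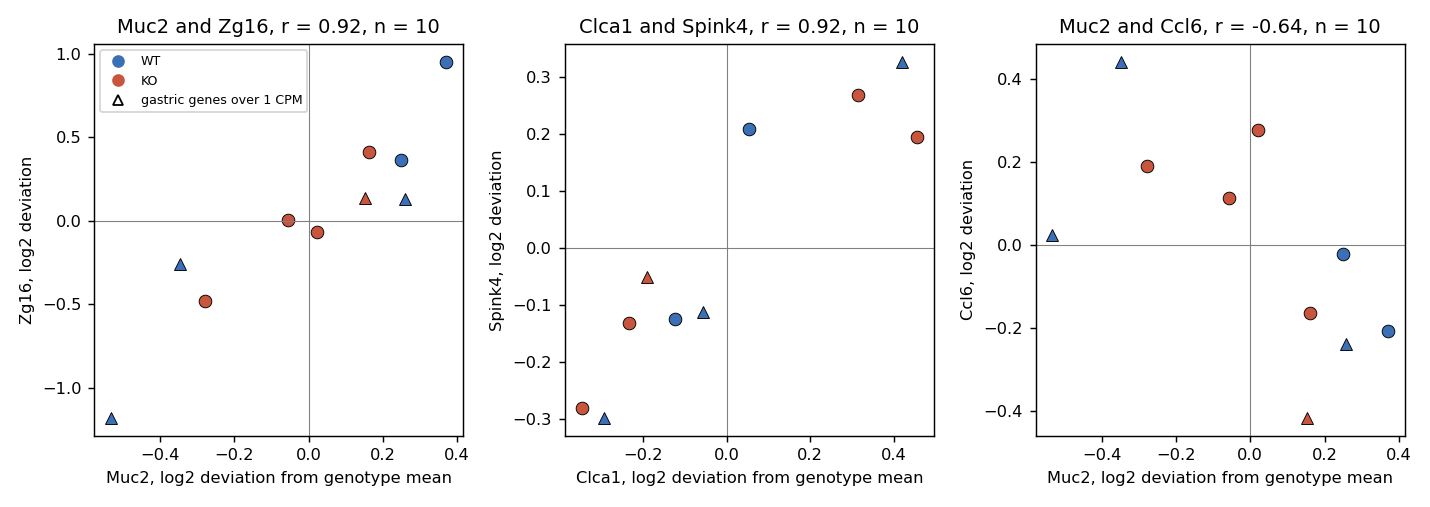
Deviation of each library from its genotype mean (log2 scale, both axes) for Muc2 against Zg16, Clca1 against Spink4 and Muc2 against Ccl6, with WT in blue, KO in red and triangles for libraries with gastric genes. The first 2 panels rise (r = 0.92 in each), the last falls (r = -0.64), and WT 4 is the lowest point of the first panel.

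Among 10455 other genes with a mean of at least 5 CPM, the pattern closest to the mean deviation of the 10 products over the 10 libraries was that of Lppos (r = 0.97), followed by Washc1 (0.95), Arl6ip5 (0.95), Supt4a (0.95) and Guca2a (0.94), where Guca2a encodes guanylin, a secreted peptide of goblet cells and enterocytes. These values are the highest of 10455 and are a description. Of these 5 genes, Lppos rose (log2 fold change 0.39, adjusted p = 0.021), a call lost without KO 1 or WT 4 (edgeR adjusted p = 0.058 and 0.051), with library size only (0.070), without a filter on low counts (0.063), on both TPM scales in limma (0.059 and 0.056) and in the 6 libraries (0.255). Its name marks a transcript opposite to Lpp. Guca2a had a log2 difference of -0.10 (adjusted p = 0.551), and the adjusted p of the other 3 lay between 0.142 and 0.552.

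Most transcription factors of the goblet lineage fell. Of 10 factors tested, 6 fell and 1 rose, with a median log2 fold change of -0.33. These calls are 70% of the factors, beside 28.3% of all genes (15.6% higher and 12.7% lower). Spdef, the factor of goblet maturation, was at 18.1 ± 1.28 CPM in WT and 13.02 ± 1.35 CPM in KO (SD, n = 5), a log2 fold change of -0.47 ± 0.09 (SE, adjusted p = 0.0035). Foxa3, a forkhead factor of secretory cells, went from 31.1 ± 2.24 to 22.3 ± 2.90 CPM (-0.48 ± 0.09, adjusted p = 0.0037), and neither gene's groups overlapped. Atoh1, Foxa1, Foxa2 and Creb3l4 also fell. The study takes Atoh1 as a marker of secretory progenitors and Paneth cells. In which cells the factors fell was not tested. Klf4, which promotes goblet differentiation and is also expressed in enterocytes, rose from 39.3 ± 3.86 to 64.0 ± 11.3 CPM (0.70 ± 0.11, adjusted p = 0.0017). Among the 6 libraries without gastric genes 1 factor of the 10 fell, Foxa3 (-0.47, adjusted p = 0.049), Klf4 rose (0.53, adjusted p = 0.042), and Spdef was at -0.54 (adjusted p = 0.054). That fit called 2.78% of all 15229 genes.

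Of the machinery that builds and releases the mucus, 37.5% of the folding and glycosylation genes and 26.3% of the granule trafficking genes were called, beside 28.3% of all genes (15.6% higher and 12.7% lower). Of 24 genes of mucin folding and glycosylation tested, 4 rose and 5 fell (median log2 fold change -0.04). Those that fell include Ern2, an endoplasmic reticulum stress sensor of mucin-producing cells (from 15.2 ± 3.30 CPM to 9.50 ± 0.86 CPM, log2 -0.68, adjusted p = 0.0050), and the mucin glycosyltransferase Galnt12 (-0.34, adjusted p = 0.0043). Slc26a2, a sulphate transporter that feeds mucin sulphation, rose (from 90.1 ± 7.72 CPM to 128 ± 18.8 CPM, log2 0.51, adjusted p = 0.0041). Of 19 genes of granule trafficking and exocytosis, 2 rose and 3 fell (median -0.08), with Sytl4 (-0.50, adjusted p = 0.013) and Myo5c (-0.47, adjusted p = 0.013) lower and the vesicle SNARE Vamp8 (0.39, adjusted p = 0.025) higher, a call that leaving out any of 6 animals ended (WT 1, WT 3, WT 4, KO 1, KO 2 or KO 5, adjusted p 0.052 to 0.059). Of 12 further secreted products tested of 16 listed, only the ribonuclease Rnase1 fell (from 49.5 ± 8.48 CPM to 35.1 ± 3.84 CPM, log2 -0.50, adjusted p = 0.0080), and none rose. The 16 include Tff1 and Muc5ac, given above as gastric genes, and the gland mucus genes Tff2 and Muc6. Muc5ac was not tested. Tff1 (-3.99, edgeR adjusted p = 0.171), Tff2 (-2.33, 0.198) and Muc6 (-1.33, 0.348) were not called. The 6 libraries were set apart without regard to Tff2 and Muc6, which reached 8.27 and 7.44 CPM among them, both in WT 2. With library size as the only scaling, 2 genes of folding and glycosylation rose and 10 fell, beside 10.5% of all genes higher and 27.4% lower. In the 6 libraries without gastric genes the median of that list was 0.13. There edgeR called none of the genes of these 3 lists, with 11 of folding and glycosylation, 3 of granule trafficking and 2 of further products at an unadjusted p under 0.05. That p was reached by 3366 of all 15229 genes in the same fit. In the list of further products Fxyd3 was at -0.28 (adjusted p = 0.051) and Lypd8, which binds flagella, at 0.37 (adjusted p = 0.139).

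**Figure D5:**
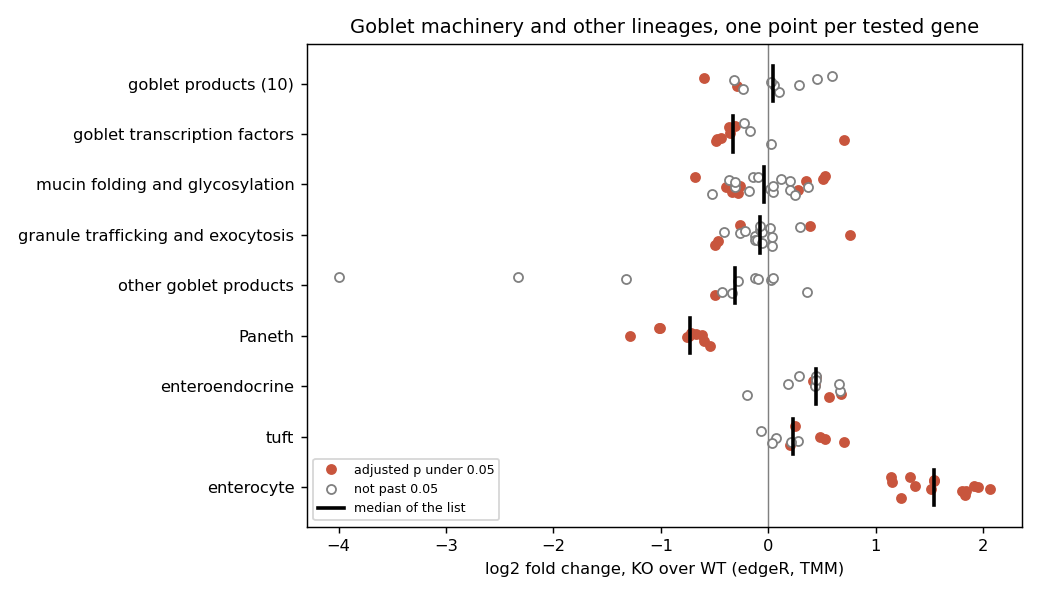
Log2 fold change of every tested gene, KO over WT (horizontal axis), in the goblet lists and in lists of other epithelial lineages, filled where the edgeR adjusted p was under 0.05, with the median of each list as a bar. The goblet products lie around 0 (median 0.04), their transcription factors and Paneth genes mostly below 0 (medians -0.33 and -0.73), and enterocyte genes all above 0 (median 1.55).

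Of the other secretory lineages, Paneth genes fell together (10 of 10, median log2 fold change -0.73), among them the alpha-defensins Defa17 (-0.76, adjusted p = 0.00080) and Defa30 (-0.72, adjusted p = 0.0015) and the colipase Clps (-0.62, adjusted p = 0.0035). Enteroendocrine genes rose for 5 of 13 and fell for none, such as ghrelin Ghrl (0.68, adjusted p = 0.0029) and the serotonin-synthesis enzyme Tph1 (0.56, adjusted p = 0.0039). Tuft genes rose for 5 of 10 tested and fell for none, such as Rgs13 (0.70, adjusted p = 0.0016). The calls are 100% of Paneth, 38.5% of enteroendocrine and 50% of tuft genes tested, beside 28.3% of all genes (15.6% higher and 12.7% lower). With library size alone 2 enteroendocrine genes rose and 1 fell, while 3 tuft genes rose, beside 10.5% of all genes higher and 27.4% lower. The median of the 10 goblet products, 0.04, lay between those of the Paneth and the tuft list (0.23). Without the libraries with gastric genes 1 Paneth gene of the 10 fell (Defa17, -0.63, adjusted p = 0.037), and the medians of the Paneth, enteroendocrine and tuft lists were -0.53, 0.35 and 0.18. No enteroendocrine or tuft gene was called there by edgeR (4 and 1 at an unadjusted p under 0.05), with Ghrl at an adjusted p of 0.078, Tph1 at 0.077 and Rgs13 at 0.070. That fit called 2.78% of all 15229 genes, and 3366 had an unadjusted p under 0.05. Differences between the lists were not tested.

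The markers of the goblet cluster in the study's single-cell data, without the 10 products, gave 301 tested genes. Of these 29 rose and 66 fell, 31.6% called beside 28.3% of all genes (22 rose and 125 fell with library size alone), with a median log2 fold change of -0.14 beside -0.03. The largest falls among genes with at least 5 CPM and no overlap were those of Sh3pxd2a, a scaffold protein of invadopodia (-0.73, adjusted p = 0.0044), the GTPase Rab15 (-0.72, adjusted p = 0.00038) and nucleobindin Nucb2 (-0.71, adjusted p = 0.0051). The largest rises were those of the ectonucleotidase Enpp3 (2.43, adjusted p = 0.0037) and the interferon-induced genes Ddx60 (1.87, adjusted p = 0.0022) and Oas3 (1.87, adjusted p = 0.0073). Without the libraries with gastric genes 5 of the cluster's genes rose and 5 fell, Rab15 (-0.63, adjusted p = 0.017) among them, beside 2.78% of all 15229 genes called.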

How the data were processed

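Polyadenylated RNA of jejunal crypts was sequenced in 10 libraries, 5 WT and 5 KO, 1 animal each as far as the labels say. The authors aligned reads with STAR and quantified genes with RSEM against GRCm38 per the labels, and the strand setting was not given in the sources used here. They deposited, for each gene, the expected count (not normalized between libraries), the TPM (scaled by the authors to a fixed sum per library) and the length and effective length. RSEM divides reads shared by paralogs, so expected counts need not be whole.

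Expected counts were rounded and tested in R 4.3.3 with edgeR 4.0.16 (filterByExpr with genotype, minimum count 10 and total 15, TMM, robust glmQLFit and glmQLFTest) with Benjamini-Hochberg adjustment over 14719 genes and a threshold of 0.05. CPM used TMM-scaled library sizes. TPM were tested with limma 3.58.1. For single values an exact permutation test (two-sided, 252 assignments, smallest p 0.0079) was used, and correlations with 14400 permutations within genotype, on log2(CPM + 0.5). Totals of 27050455 to 31053622 counts limit precision near 1 CPM. Genes without a symbol took 0.018% to 0.0215% of the counts.

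The 10 genes and all lists were chosen with earlier results of these data known. The lists were goblet transcription factors, mucin folding and glycosylation, granule trafficking, other goblet products, Paneth, enteroendocrine, tuft, enterocyte, epithelium, myeloid, mast cell, stroma and regional genes, and the study's single-cell goblet cluster, of which 313 of 318 genes were matched. Named were the 10 genes, Arid3a, at most 3 genes of a list by adjusted p with at least 5 CPM, 3 rises and 3 falls of the goblet cluster and 5 genes by likeness. Other list genes given by name alone, the gastric genes and their list were chosen after values were seen. Promoters came from RefSeq on GRCm38.p6. In simulated counts on the same 14719 genes for KO against WT, 43 of 100 genes changed by 0.5 and 92 of 100 changed by 1 (log2) were called, with 4 false calls. No other genes were changed there, and the spread of each gene followed the trend over genes of like level. These rates need not hold for the real comparison, where 4167 genes were called. Alternatives were DESeq2 1.42.0, RLE, library size only, 2 other filters, unrounded counts, effective length as an offset, TPM with pseudocounts 1 and 0.1, the replicate number as a block, each animal left out and, chosen after seeing the data, the 6 libraries without gastric genes.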

Additional observations from a re-analysis of the deposited data

Results flagged for a closer look

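Of 42 groups of 5 animals examined (CPM and RSEM length of the 10 products and Arid3a), 2 held an animal far from the others by Dixon's test, where chance gives about 1 in 20. The RSEM length of Arid3a in WT 5 was 3751 bases, below the 5132 to 5361 bases of the other WT animals. The RSEM length of Agr2 in WT 5 was 785.0 bases, the lowest of a WT group that spans less than a base. No product had a flagged animal in CPM.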

How the results depend on the processing

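The products called numbered 2 with TMM, and 4 with library size only, 4 on log2(TPM + 1), 4 on log2(TPM + 0.1), 1 without a filter on low counts, 1 with the replicate number as a block, and 0 in the 6 libraries without gastric genes, where edgeR had 2 at an unadjusted p under 0.05. Leaving out single animals gave 1 to 2. Of all 14719 genes, TMM called 4167, library size only 5571, log2(TPM + 1) 4171 and log2(TPM + 0.1) 4141. Without a filter 3397 of 27960 genes were called, and under the replicate block 3052 of 14719. Genes called ranged from 3007 (without WT 4) to 4684 (without WT 2) on leaving out an animal, and were 423 in the 6 libraries, a fit with fewer samples. The causes were not tested. Ccl6 kept its direction in 21 of 21 alternatives and its call in 20, and Klk1 kept its direction in 21 and its call in 10. Without a filter Klk1 had an adjusted p of 0.054, and under the replicate block 0.098, while that of Lppos was 0.053 there.

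Some differences that were not called changed sign. Tff3 was at -0.066 with library size only, -0.01 on both TPM scales (-0.0085 in each), -0.084 in the 6 libraries and -0.045 to 0.15 on leaving out an animal. Tpsg1 was at -0.040 with effective length as an offset, -0.10 with library size only, -0.14 on log2(TPM + 0.1), -0.13 on log2(TPM + 1), -0.076 in the 6 libraries and -0.067 to 0.14 on leaving out an animal. Fcgbp was at -0.027 and Supt4a at -0.0099 with library size only. In the 6 libraries Muc2 was at -0.025, its share of the summed TPM at -0.046 percentage points, and the RSEM length of Clca1 at -9.375 bases, which ranged from -43.2 to 109.7 bases on leaving out an animal.

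The replicate numbers did not pair the samples: same-numbered WT and KO deviations correlated at -0.16, -0.04, 0.13, -0.14 and -0.15. The block took the genes called from 4167 to 3052 and the products from 2 to 1. With 5 animals a group, the 95% intervals of the products span 0.43 (Fcgbp) to 1.54 (Zg16) on the log2 scale from lower to upper limit, which sets the precision of each difference.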
